A study of Mus musculus with 10 samples.

Results

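Phosphatidic acid is the branch point of glycerolipid synthesis, and the 10 genes described here encode enzymes that make it, enzymes that remove its phosphate and the regulators of those enzymes. They are Gpat3, Gpat4, Agpat3, Plpp1, Plpp2, Plpp3, Lpin1, Lpin2, Cnep1r1 and Ctdnep1, taken by symbol from a table of 18493 genes measured in mouse oocytes. Gpat3, Plpp1 and Cnep1r1 were chosen by their fold changes between these same groups, so their values are given as a description with no test. The other 7 genes are their paralogs and partners. All 10 passed the filter on low counts and stood among the 12315 genes tested.

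Oocytes from the ovary fell into 3 groups: spermidine (n = 4 libraries, given in the labels as a rescue), aged (n = 3) and young (n = 3, the control). The labels give no strain, age in weeks, dose or route, and do not say how many oocytes or animals stand behind a library. Spermidine is a polyamine, and by its design text the series asks how it acts on the transcripts of aged oocytes. The spermidine group is taken as aged oocytes with spermidine, though its labels state no age. RNA was captured by its poly(A) tail and amplified by SMART-seq2, so levels are those of polyadenylated RNA and tail length was not measured.

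Cells build glycerolipids on the endoplasmic reticulum by adding fatty acyl chains to glycerol 3-phosphate, which gives lysophosphatidic acid and then phosphatidic acid. Phosphatidic acid is either turned into CDP-diacylglycerol for some phospholipids or dephosphorylated by lipins to diacylglycerol, the precursor of triacylglycerol and of phosphatidylcholine and phosphatidylethanolamine. Lipins are themselves switched on by the nuclear envelope phosphatase CTDNEP1 with its regulatory subunit CNEP1R1. Mammalian oocytes store triacylglycerol in lipid droplets and burn fatty acids during maturation.

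Library totals lay between 24222185 and 28730790 counts, and levels are given as CPM, the TMM-scaled share of a library's counts. With such relative levels, fewer cells of a type and less RNA per cell cannot be told apart. Each of the 10 oocyte markers averaged at least 1 CPM in every group, and their sum ran from 24123 to 39612 CPM over the libraries. The 13 granulosa and cumulus markers summed to 21.4 to 28.1 CPM in spermidine, 20.2 to 24.0 CPM in aged and 20.5 to 23.6 CPM in young libraries, with Amh, Ptx3 and Tnfaip6 at 0 in aged and Amh at 0 in young. Cyp19a1 was the largest, at 10.1 to 12.4 CPM in spermidine, 8.81 to 12.0 CPM in aged and 10.9 to 16.7 CPM in young. Nr5a2 came next, at 7.02 to 8.15 CPM in spermidine, 5.83 to 8.14 CPM in aged and 3.63 to 5.03 CPM in young. The 10 theca and stroma markers summed to 2.03 to 2.83 CPM in spermidine, with Col1a1 and Col1a2 at 0, to 2.09 to 2.84 CPM in aged, with Col1a2 at 0, and to 3.34 to 5.48 CPM in young. Of these, Cyp11a1 reached 1.38 CPM in spermidine, 1.23 CPM in aged and 2.76 CPM in young. The 10 blood and immune markers summed to 0.810 to 1.38 CPM in spermidine, with Hbb-bs, Hba-a2 and Adgre1 at 0, to 0.697 to 11.8 CPM in aged and to 1.08 to 26.9 CPM in young. Their part in the results below was not tested. Aged replicate 1 stood apart: across genes, its deviation from the mean of all libraries had a correlation of 0.399 with log2 transcript length, against -0.195 to 0.144 in the other libraries. For GC content the same correlation was lowest in young replicate 3 at -0.245 and highest in aged replicate 3 at 0.367. The labels do not tie libraries to separate animals, so each p-value reflects only differences among these libraries, possibly technical ones.

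Gpat3 (Gene ID 231510, chromosome 5) encodes an acyltransferase of the endoplasmic reticulum that adds the first acyl chain to glycerol 3-phosphate. Its levels were highest in the spermidine group. They were 29.1, 22.8, 32.4 and 22.5 CPM in spermidine libraries 1 to 4, against 10.6, 11.4 and 10.1 CPM in aged libraries and 11.2, 9.91 and 13.7 CPM in young libraries. The lowest spermidine library was above every aged and every young library, and the aged and young ranges overlapped. The log2 fold change was 1.32 (SE 0.18) for spermidine minus aged and 1.20 (SE 0.18) for spermidine minus young. For aged minus young it was -0.12 (SE 0.19), with means of 10.7 CPM ± 0.700 in aged and 11.6 CPM ± 1.95 in young oocytes (SD, n = 3 each). That value is small enough to change sign with total count scaling, to 0.0254.

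Gpat4 (Gene ID 102247, chromosome 8) encodes the other acyltransferase of this pair in the endoplasmic reticulum and did not follow Gpat3. It had 14.6, 15.0, 18.2 and 21.5 CPM in spermidine, 18.5, 22.2 and 20.6 CPM in aged and 15.1, 19.0 and 13.8 CPM in young libraries, and all 3 groups overlapped. The log2 fold changes were -0.24 (SE 0.18, adjusted p = 0.433) for spermidine minus aged, 0.36 (SE 0.19, adjusted p = 0.199) for aged minus young and 0.12 (SE 0.18, adjusted p = 0.751) for spermidine minus young (edgeR's quasi-likelihood F test, Benjamini-Hochberg over all genes tested). After a correction for transcript length and GC content the value for aged minus young was 0.043 and that for spermidine minus aged -0.066, and without young replicate 3 the value for aged minus young was 0.21. Set against transcript length (CPM per kb of the longest coding transcript), Gpat3 made up 78.2%, 73.3%, 76.2% and 65.4% of the sum of both genes in spermidine libraries. The share was 50.9%, 48.2% and 46.8% in aged and 57.3%, 48.5% and 64.2% in young libraries, so the highest young library lay just under the lowest spermidine library. The summed level was 11.9 CPM per kb ± 1.56 in spermidine (SD, n = 4), 7.20 ± 0.501 in aged and 6.69 ± 0.305 in young oocytes (SD, n = 3 each). Since Gpat3 was chosen for its change, its share and this sum are a description.

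**Figure D1:**
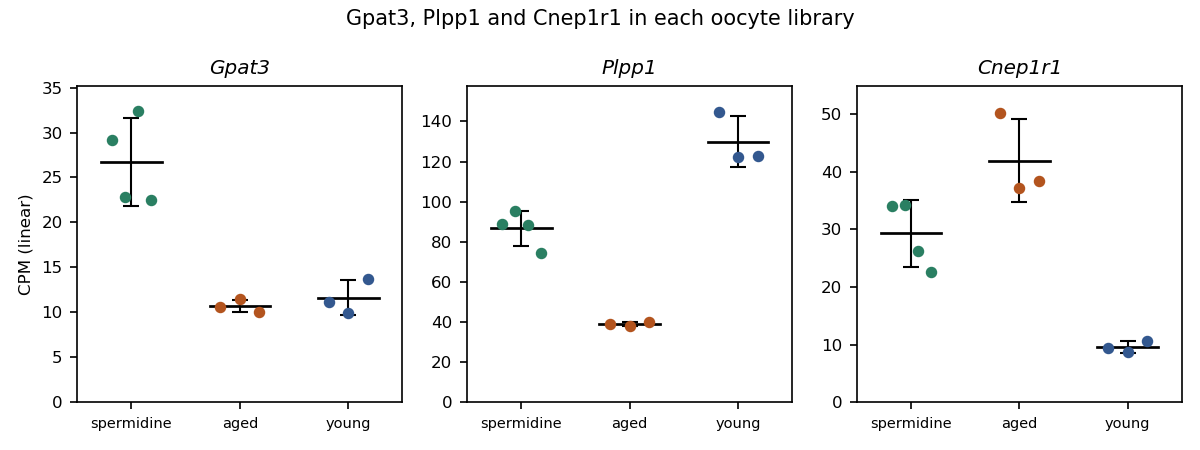
Levels of Gpat3, Plpp1 and Cnep1r1 in CPM on a linear axis from 0, with a point per library, the group mean as a horizontal line and the SD as whiskers (spermidine n = 4, aged n = 3, young n = 3). Gpat3 lies at 22.5 to 32.4 CPM in the spermidine libraries and at most 13.7 CPM in the others, Plpp1 is lowest in the aged libraries at 38.2 to 39.9 CPM, and Cnep1r1 is lowest in the young libraries at 8.80 to 10.7 CPM.

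Agpat3 (Gene ID 28169, chromosome 10) encodes an acyltransferase that can add the next chain, turning lysophosphatidic acid into phosphatidic acid. It was a low transcript, with 3.34, 3.15, 2.92 and 3.18 CPM in spermidine, 3.00, 2.50 and 2.31 CPM in aged and 1.75, 2.33 and 1.25 CPM in young libraries. The spermidine libraries all lay above the young ones, while aged libraries overlapped with both. The log2 fold change for spermidine minus young was 0.82 (SE 0.22) and missed the threshold of 0.05 (edgeR adjusted p = 0.0562). It passed with DESeq2 (adjusted p = 0.0365), with total count scaling (adjusted p = 0.0489) and without young replicate 2 (adjusted p = 0.0338). In the other 16 of 19 alternatives it did not pass. Without young replicate 1 it was 0.76 (edgeR adjusted p = 0.214), and without young replicate 3 it was 0.56 (edgeR adjusted p = 0.256). The change was 0.27 (SE 0.21, edgeR adjusted p = 0.464) for spermidine minus aged and 0.54 (SE 0.24, edgeR adjusted p = 0.127) for aged minus young. With the length and GC correction the value for aged minus young was 0.10 and that for spermidine minus aged 0.55, and without young replicate 3 the value for aged minus young was 0.29.

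The phospholipid phosphatases are membrane enzymes with their active site facing outside the cell or into the lumen, where they dephosphorylate lysophosphatidic acid, phosphatidic acid and related lipid phosphates. Plpp1 (Gene ID 19012, chromosome 13) had 88.8, 95.4, 88.4 and 74.4 CPM in spermidine libraries, against 39.0, 38.2 and 39.9 CPM in aged libraries and 145, 123 and 123 CPM in young libraries. The 3 groups did not overlap, the aged libraries lying lowest, the young highest and the spermidine libraries between them. Means were 86.8 CPM ± 8.84 in spermidine (SD, n = 4), 39.1 CPM ± 0.842 in aged and 130.0 CPM ± 12.9 in young oocytes (SD, n = 3 each). The log2 fold change was -1.73 (SE 0.14) for aged minus young, 1.15 (SE 0.13) for spermidine minus aged and -0.58 (SE 0.13) for spermidine minus young. The aged libraries enter both of the first comparisons, so these are not independent of each other. Total count scaling moved the median of all genes from 0.10 to 0.24 for aged minus young and from 0.045 to 0.23 for spermidine minus young, and Plpp1 with it to -1.59 and -0.40. Expected counts of Plpp1 were not whole in 4 libraries, as RSEM gives where reads match several genes, and those of the other 9 genes were whole throughout.

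Plpp3 (Gene ID 67916, chromosome 4) encodes a close paralog and had 40.2, 35.5, 31.0 and 52.2 CPM in spermidine, 32.9, 53.8 and 66.1 CPM in aged and 33.1, 41.1 and 32.6 CPM in young libraries. The aged libraries spread over the whole range, and aged replicate 1 was the lowest of them. Its log2 fold change was -0.36 (SE 0.23, edgeR adjusted p = 0.368) for spermidine minus aged, 0.52 (SE 0.25, edgeR adjusted p = 0.162) for aged minus young and 0.16 (SE 0.23, edgeR adjusted p = 0.750) for spermidine minus young. Without aged replicate 1 the change for aged minus young was 0.71 and passed, as it did without that library and spermidine replicate 1 together, where it was 0.70 (edgeR adjusted p = 0.0285). Without aged replicate 3, the highest library, it was 0.29 (edgeR adjusted p = 0.466), and with the length and GC correction it was 0.34. The value for spermidine minus aged was -0.59 without aged replicate 1 and -0.13 without aged replicate 3. Plpp2 (Gene ID 50784, chromosome 10), the least abundant of Plpp1, Plpp2 and Plpp3, had 2.62, 2.61, 3.52 and 5.64 CPM in spermidine, 2.47, 4.89 and 5.28 CPM in aged and 3.78, 4.63 and 4.89 CPM in young libraries. These ranges overlapped in every comparison, and its adjusted p was 0.627 at the smallest (edgeR). Its fold change for aged minus young, -0.08 (SE 0.33), was 0.16 without aged replicate 1 and -0.27 without aged replicate 3. Per kb of transcript, Plpp1 made up 79.6%, 82.3%, 82.2% and 70.0% of the 3 phosphatases in spermidine libraries. It made up 67.2%, 54.5% and 50.9% in aged and 87.7%, 82.9% and 85.3% in young libraries. The summed level of these 3 genes was 69.0 CPM per kb ± 2.72 in spermidine (SD, n = 4), 43.1 ± 6.43 in aged and 95.3 ± 7.12 in young oocytes (SD, n = 3 each), and these sums did not overlap between groups. Since Plpp1 was chosen for its change and makes up most of the sum, its shares and the sums are a description.

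**Figure D2:**
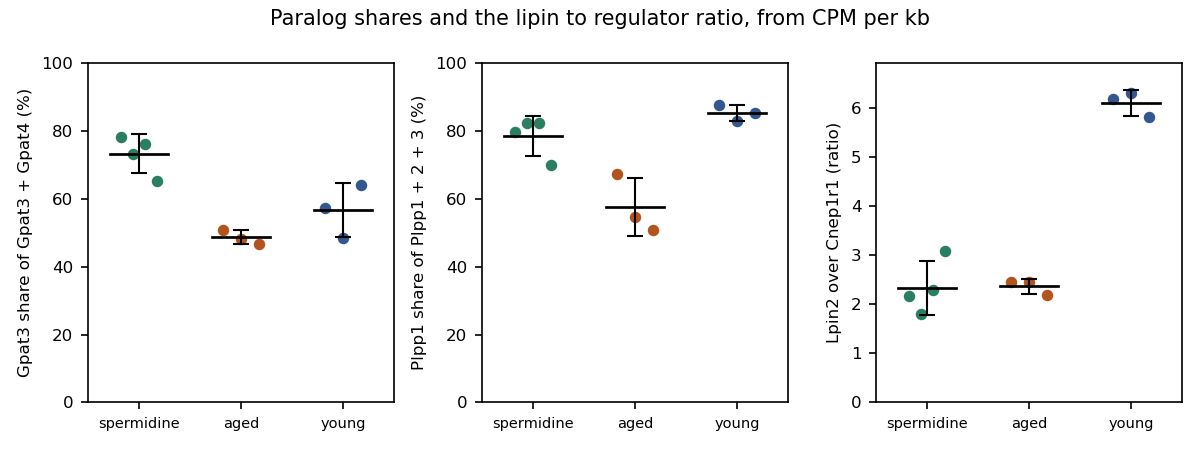
Gpat3 share of Gpat3 and Gpat4 in percent, Plpp1 share of Plpp1, Plpp2 and Plpp3 in percent, and the ratio of Lpin2 to Cnep1r1, all from CPM per kb, with a point per library, the mean as a horizontal line and the SD as whiskers. The Gpat3 share is 65.4% to 78.2% with spermidine, the Plpp1 share is 50.9% to 67.2% in aged oocytes, and the Lpin2 to Cnep1r1 ratio is 5.82 to 6.31 in young oocytes and at most 3.09 elsewhere.

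The lipins are the soluble phosphatidic acid phosphatases of glycerolipid synthesis. Lpin2 (Gene ID 64898, chromosome 17) was far more abundant than Lpin1 in these oocytes, with 97.9% to 99.1% of the sum of Lpin1 and Lpin2 per kb in any library. Lpin3, also a lipin, was not in this sum. Lpin2 rose in aged oocytes. Its levels were 314, 232 and 216 CPM in aged libraries, against 148, 142 and 159 CPM in young libraries, and the groups did not overlap. The log2 fold change for aged minus young was 0.76 (SE 0.16), and it passed the test (edgeR adjusted p = 0.00860). The call held in each of the 20 alternatives, with adjusted p from 0.000402 to 0.0486. The change was 0.54 without aged replicate 1, the highest library, and 0.47 after correction for length and GC content, which is more than 1.5 times smaller.

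With spermidine, Lpin2 had 188, 157, 153 and 178 CPM, against the 314, 232 and 216 CPM of the aged libraries, again without overlap. It fell relative to aged oocytes by 0.59 on the log2 scale (SE 0.15, edgeR adjusted p = 0.0437). This call was lost in 12 of the 20 alternatives, where the adjusted p reached 0.144. It was lost without any 1 of the young or aged libraries, without spermidine replicate 2 and without spermidine replicate 3, with changes from -0.69 to -0.40 over the libraries left out. Against young oocytes the spermidine group differed by 0.18 (SE 0.15, edgeR adjusted p = 0.540), and those ranges overlapped. With the length and GC correction this value was 0.03, and with total count scaling 0.37. Lpin2 was thus highest in the aged group, where Plpp1 was lowest.

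Lpin1 (Gene ID 14245, chromosome 12), the paralog best known from adipose tissue and muscle, was a low transcript here, with 2.83, 1.96, 3.32 and 2.11 CPM in spermidine, 3.34, 2.69 and 1.83 CPM in aged and 1.57, 1.94 and 1.78 CPM in young libraries. The spermidine libraries lay above the young ones by a narrow margin, and aged libraries overlapped with both. Its log2 fold change was 0.53 (SE 0.26, edgeR adjusted p = 0.284) for spermidine minus young, 0.57 (SE 0.28, edgeR adjusted p = 0.163) for aged minus young and -0.04 (SE 0.25, edgeR adjusted p = 0.940) for spermidine minus aged. The value for aged minus young was 0.32 without aged replicate 1 and 0.25 with the length and GC correction.

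**Figure D3:**
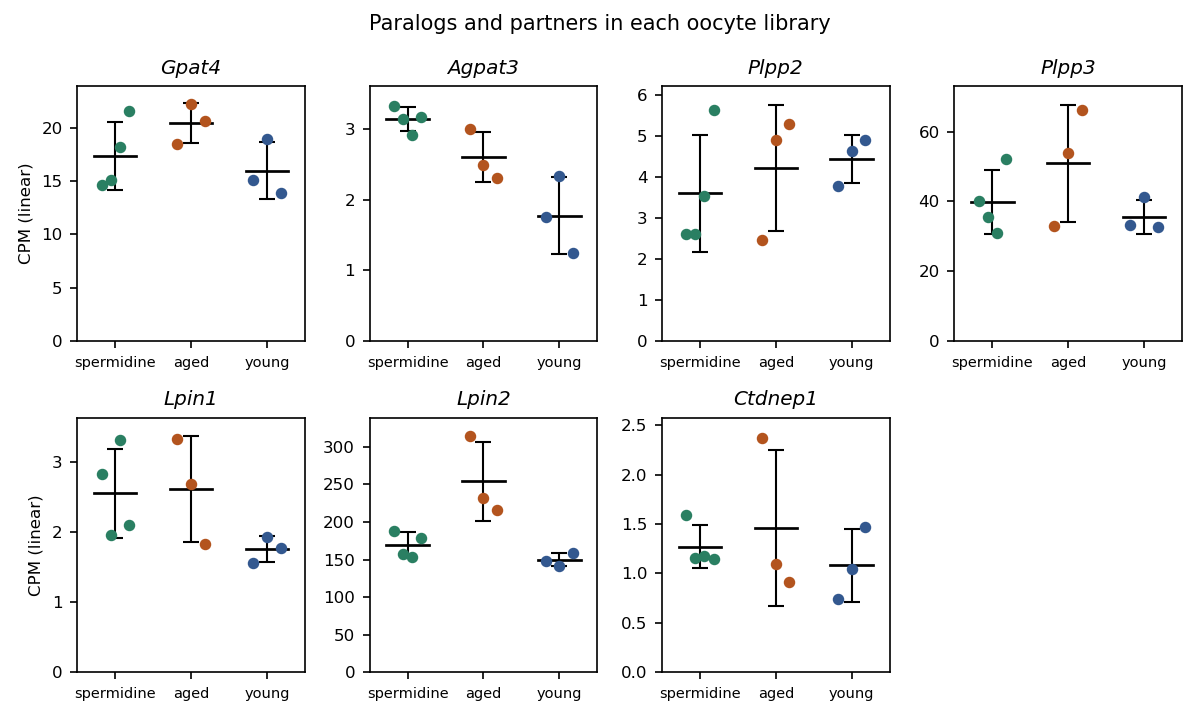
Levels of the 7 paralogs and partners in CPM on linear axes from 0, with a point per library, the group mean as a horizontal line and the SD as whiskers (spermidine n = 4, aged n = 3, young n = 3). Lpin2 is highest in the 3 aged libraries at 216 to 314 CPM, and the other genes overlap between aged and young oocytes.

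Cnep1r1 (Gene ID 382030, chromosome 8) encodes the regulatory subunit that CTDNEP1 needs to act on lipins. It was lowest in young oocytes. Its levels were 34.0, 34.3, 26.3 and 22.6 CPM in spermidine libraries, 50.2, 37.1 and 38.5 CPM in aged libraries and 9.35, 8.80 and 10.7 CPM in young libraries. The groups did not overlap, with spermidine libraries between the aged and the young ones and closer to the aged ones. The log2 fold change was 2.12 (SE 0.20) for aged minus young, a 4.36-fold difference, and 1.61 (SE 0.19) for spermidine minus young, a 3.05-fold difference. For spermidine minus aged it was -0.52 (SE 0.18), and -0.37 without aged replicate 1. Over the libraries left out the value for aged minus young ran from 1.93 to 2.21.

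Ctdnep1 (Gene ID 67181, chromosome 11) encodes the catalytic subunit and was scarce, at 29 to 53 counts in spermidine, 25 to 71 counts in aged and 16 to 33 counts in young libraries. Its levels were 1.59, 1.16, 1.17 and 1.15 CPM in spermidine, 2.37, 1.10 and 0.917 CPM in aged and 0.737, 1.04 and 1.47 CPM in young libraries, and each comparison overlapped. The log2 fold change was -0.20 (SE 0.34, edgeR adjusted p = 0.748) for spermidine minus aged, 0.44 (SE 0.38, edgeR adjusted p = 0.422) for aged minus young and 0.24 (SE 0.36, edgeR adjusted p = 0.756) for spermidine minus young. At these counts the SE was 0.34 to 0.38. That is not a limit of detection, as the change of 0.44 exceeded its SE and did not pass. Without aged replicate 1, the highest library, the change was 0.34 for spermidine minus aged and -0.14 for aged minus young. The transcripts of the complex were thus uneven: per kb, Cnep1r1 exceeded Ctdnep1 by a ratio of 17.1 ± 3.21 in spermidine (SD, n = 4), 23.8 ± 7.70 in aged and 6.98 ± 2.09 in young oocytes (SD, n = 3 each).

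The ratio of Lpin2 to Cnep1r1 per kb was 2.17, 1.80, 2.29 and 3.09 in spermidine, 2.45, 2.45 and 2.20 in aged and 6.20, 6.31 and 5.82 in young libraries. The spermidine and aged libraries overlapped in this ratio, and every young library was above them. Since Cnep1r1 was chosen for its change, the ratio is a description.

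**Figure D4:**
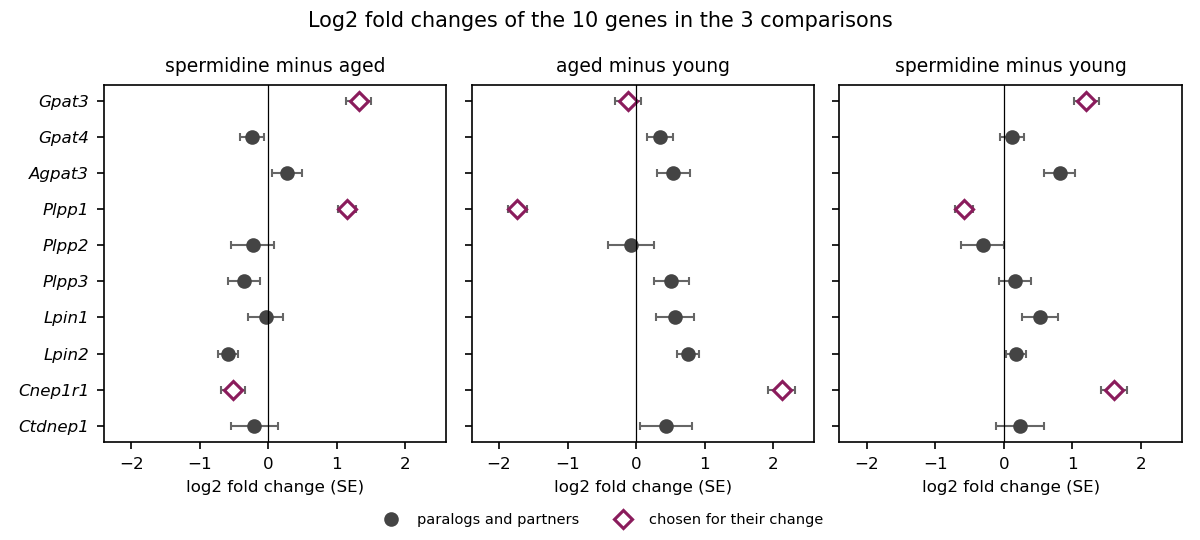
Log2 fold changes with their SE for the 10 genes in the comparisons spermidine minus aged, aged minus young and spermidine minus young, from 1 fit over all 10 libraries. Open diamonds mark Gpat3, Plpp1 and Cnep1r1, chosen for their change, and filled circles the paralogs and partners, whose changes all lie between -0.59 and 0.82.

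Of the 7 paralogs and partners, 1 rose and 0 fell in aged against young oocytes, where 17.8% of all tested genes passed, 9.71% as higher and 8.06% as lower (edgeR, with 2 of the 7 at an unadjusted p under 0.05 and 1 by DESeq2). With spermidine against aged, 0 rose and 1 fell, where 4.86% of all tested genes passed, 2.42% as higher and 2.44% as lower. With spermidine against young, 0 of the 7 passed by edgeR, where 5.36% of all genes did, 3.44% as higher and 1.92% as lower, with 1 at an unadjusted p under 0.05 and 1 by DESeq2. The 7 genes had a median log2 fold change of 0.52 for aged minus young, against 0.10 over all genes tested, of -0.23 for spermidine minus aged, against -0.029, and of 0.18 for spermidine minus young, against 0.045. With the length and GC correction the median of the 7 genes was 0.25 for aged minus young, against 0.0046 over all genes. For spermidine minus young it was 0.094 with that correction, against -0.020 over all genes. Total count scaling gave 0.37 for spermidine minus young, against 0.23 over all genes. Leaving out young replicate 1 gave 0.07 for it, against 0.0039. Without spermidine replicate 4 the median for spermidine minus aged was -0.36, against -0.034 over all genes. Groups did not overlap for 1 of the 7 in aged against young, where 40.0% of all genes did not, for 1 in spermidine against aged (19.9% of all genes) and for 2 in spermidine against young (21.0% of all genes). Lpin2 alone accounted for the calls of the 7 genes in the first 2 of these comparisons, as 14.3% of the set in each.

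Levels between genes were compared per kb of transcript. In young oocytes Plpp1 led with 81.4 CPM per kb ± 8.05, followed by Lpin2 with 26.5 ± 1.57 and Plpp3 with 11.3 ± 1.52 (SD, n = 3). Cnep1r1, Gpat3, Gpat4 and Plpp2 followed at 2.68 to 4.36 CPM per kb, with neighbouring ranges that overlapped, and Ctdnep1, Lpin1 and Agpat3 were each under 1. In aged oocytes Lpin2 led with 45.0 ± 9.34, ahead of Plpp1 with 24.4 ± 0.527 and Cnep1r1 with 19.0 ± 3.25 (SD, n = 3), and Cnep1r1 overlapped with Plpp3. In spermidine oocytes Plpp1 with 54.3 ± 5.53 was again ahead of Lpin2 with 30.0 ± 2.96 (SD, n = 4). Gpat3 at 8.73 ± 1.58 CPM per kb was clear of Gpat4 at 3.14 ± 0.581 there, whereas these neighbours overlapped in the aged and in the young group.

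Other genes of the pathway were taken from a list by family, of which 81 were in the table and 65 were tested. For aged minus young 5 rose and 2 fell, 10.8% of the list against 17.8% of all tested genes, and the median log2 fold change was 0.31 against 0.10. For spermidine minus aged 1 rose and 1 fell, 3.1% against 4.86%, with a median of -0.19 against -0.029. For spermidine minus young 1 rose and 0 fell, 1.5% against 5.36%, with a median of 0.12 against 0.045 (edgeR, with 5 at an unadjusted p under 0.05 and 3 called by DESeq2). By family, 0 of 3 genes of glycerol 3-phosphate supply, 0 of 11 that make phosphatidic acid from other lipids and 0 of 7 of the CDP-diacylglycerol branch passed in any of the 3 comparisons.

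Of 9 genes of triacylglycerol metabolism and lipid droplets tested, 1 rose and 0 fell in aged against young oocytes, where 9.71% of all tested genes rose and 8.06% fell. Pnpla2 encodes adipose triglyceride lipase, which opens the hydrolysis of stored triacylglycerol. It had 3.37, 2.07, 3.04 and 4.26 CPM in spermidine, against 7.01, 7.50 and 8.62 CPM in aged and 2.26, 2.66 and 2.13 CPM in young libraries. Every aged library stood above every library of the other groups, and the spermidine and young ranges overlapped. Pnpla2 rose by a log2 fold change of 1.71 (SE 0.25) in aged against young oocytes (edgeR adjusted p = 0.00133) and fell by 1.28 (SE 0.22) with spermidine against aged (edgeR adjusted p = 0.0121). Both calls held in each of the 19 alternatives in which the gene was tested, with the adjusted p at most 0.0119 and 0.0469. Plin2, which coats lipid droplets, had 9.17 CPM ± 2.99 in spermidine (SD, n = 4), 7.43 CPM ± 1.02 in aged and 4.55 CPM ± 1.13 in young oocytes (SD, n = 3 each). Every aged library lay above every young one, though the change of 0.70 (SE 0.27) did not pass (edgeR adjusted p = 0.0921). Spermidine and aged ranges overlapped, with a change of 0.30 (SE 0.25, edgeR adjusted p = 0.489). Against young oocytes Plin2 rose by 1.01 (SE 0.26, edgeR adjusted p = 0.0441) with spermidine. Its call was lost in 10 of 19 alternatives, where the adjusted p reached 0.226, among them the fits without any 1 of the young libraries, of aged replicates 2 and 3 or of spermidine replicates 2, 3 and 4.

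Among the other acyltransferases, listed together with the synthase gene Agps, 2 of 14 rose and 0 fell in aged oocytes, where 9.71% of all tested genes rose and 8.06% fell. Agpat1, which makes phosphatidic acid from lysophosphatidic acid, had 2.43 CPM ± 0.255 in aged and 1.13 CPM ± 0.270 in young oocytes (SD, n = 3 each), a log2 fold change of 1.09 (SE 0.25, edgeR adjusted p = 0.0133). Lpcat4, which reacylates lysophospholipids, had 14.0 CPM ± 4.01 in aged and 5.92 CPM ± 1.22 in young oocytes (SD, n = 3 each), a change of 1.24 (SE 0.30, edgeR adjusted p = 0.0155). Both calls were lost without young replicate 1 and without young replicate 3, and that of Lpcat4 also without aged replicate 3, with adjusted p up to 0.0670 and 0.0815. With spermidine against aged neither passed, at an edgeR adjusted p of 0.0634 for Agpat1, whose change was -0.79 (SE 0.23), and of 0.0531 for Lpcat4.

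**Figure D5:**
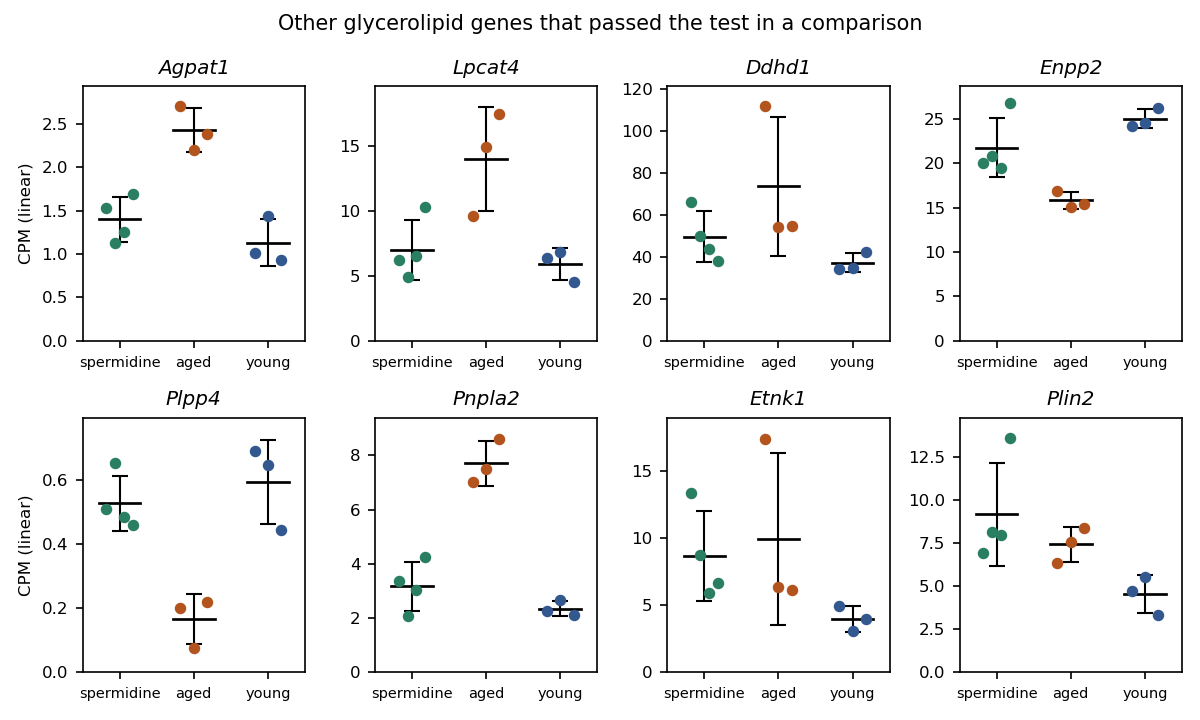
Levels in CPM, on linear axes from 0, of the 8 other glycerolipid genes that passed the test in a comparison, with a point per library, the group mean as a horizontal line and the SD as whiskers (spermidine n = 4, aged n = 3, young n = 3). Pnpla2 lies at 7.01 to 8.62 CPM in the aged libraries and at most 4.26 CPM in the others, and Ddhd1 and Etnk1 are highest in aged replicate 1.

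Of 5 other genes of the phospholipid phosphatase and lipin families, Plpp4 alone passed, in aged against young, where 17.8% of all tested genes passed, and in spermidine against aged, where 4.86% did. It fell by 1.81 (SE 0.42, edgeR adjusted p = 0.0145) in aged against young and rose by 1.64 (SE 0.40, edgeR adjusted p = 0.0419) with spermidine against aged. It rested on few reads, with 0.528 CPM ± 0.0860 in spermidine (SD, n = 4), 0.165 CPM ± 0.0782 in aged and 0.594 CPM ± 0.131 in young oocytes (SD, n = 3 each), and on 2 to 6 counts in each aged library. The aged libraries lay under the filter on low counts, so Plpp4 was tested only because the spermidine and young libraries passed it. Its fall and rise are therefore a description, and their adjusted p-values are no support for them. The fall was lost without young replicate 1 and without aged replicate 2 (adjusted p up to 0.0564), and the rise in 14 of 19 alternatives (adjusted p up to 0.141), 9 of them the fits that left out 1 library other than spermidine replicate 4.

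Of 3 tested genes that break down phosphatidic or lysophosphatidic acid or make the latter outside the cell, 1 rose and 1 fell in aged oocytes, where 17.8% of all tested genes passed. Enpp2, the secreted lysophospholipase D autotaxin, had 15.8 CPM ± 0.937 in aged and 25.0 CPM ± 1.08 in young oocytes (SD, n = 3 each), a change of -0.66 (SE 0.16, edgeR adjusted p = 0.0152). The call was lost without aged replicate 2 and with total count scaling (adjusted p up to 0.0765). Ddhd1, a phospholipase that cleaves phosphatidic acid, had 112, 54.4 and 54.8 CPM in aged and 34.4, 34.8 and 42.4 CPM in young libraries, a change of 0.99 (SE 0.28, edgeR adjusted p = 0.0313) that was 0.51 and no longer passed without aged replicate 1. It was also lost without any 1 of the young libraries and without spermidine replicate 2 (adjusted p up to 0.120). Etnk1, an ethanolamine kinase and 1 of 13 genes of phosphatidylcholine, phosphatidylethanolamine and phosphatidylserine synthesis, had 17.4, 6.37 and 6.16 CPM in aged and 4.98, 3.05 and 4.00 CPM in young libraries. Its change of 1.32 (SE 0.42, edgeR adjusted p = 0.0479) was 0.60 without aged replicate 1, and the call was lost in 12 of 19 alternatives (adjusted p up to 0.204). Among the 12 were the fits without any 1 of the young libraries and without spermidine replicates 2, 3 or 4.

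Of the genes chosen for their change, Plpp1 had no RefSeq window at hand, and the promoters of Gpat3 and Cnep1r1 are shown. Both windows run from 250 bases before to 50 bases after the RefSeq start on the + strand of GRCm38.p6, which is not the build of the counts. They are Gpat3 at chr5:100845979-100846278 and Cnep1r1 at chr8:88118509-88118808, and RefSeq windows were at hand for 8 of the 10 genes. Capitals mark GGGCGG, the GC box, and CCAAT, the CCAAT box, on either strand.
Gpat3: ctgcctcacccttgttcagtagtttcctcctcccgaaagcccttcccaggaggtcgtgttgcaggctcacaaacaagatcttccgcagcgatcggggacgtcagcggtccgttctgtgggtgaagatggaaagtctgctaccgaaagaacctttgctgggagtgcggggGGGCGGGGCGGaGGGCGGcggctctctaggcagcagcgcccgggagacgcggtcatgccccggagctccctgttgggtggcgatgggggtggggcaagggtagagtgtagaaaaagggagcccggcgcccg
Cnep1r1: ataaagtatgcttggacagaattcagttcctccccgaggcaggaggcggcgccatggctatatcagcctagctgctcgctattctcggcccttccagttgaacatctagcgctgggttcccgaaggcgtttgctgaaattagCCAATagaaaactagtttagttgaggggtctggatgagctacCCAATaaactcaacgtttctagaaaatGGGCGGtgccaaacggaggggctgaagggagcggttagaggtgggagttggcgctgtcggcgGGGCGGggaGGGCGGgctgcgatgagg
The Gpat3 window had a GC content of 64.3% and held 3 GC boxes, of which the first and next share 1 base, and no CCAAT. The Cnep1r1 window had a GC content of 55.7% and held 3 GC boxes and 2 CCAAT boxes. Of all 32851 such windows, 35.7% held GGGCGG and 37.4% held CCAAT, so both motifs are common. Neither window held TATAAA, found in 13.6% of windows, or CACGTG, found in 7.15%, and of CANNTG, found in 72.3%, the Cnep1r1 window held 1 match and the Gpat3 window 0. Matches are letters only and were not tested as binding sites.

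The genes most alike in pattern were taken, as a description, by Pearson's correlation of log2(CPM + 1) over the 10 libraries. They were ranked among 5307 tested genes of at least 10 CPM on average, with predicted genes (Gm and Rik symbols) left out. For Gpat3 these were Psg16 (r = 0.913), the mitochondrial import gene Timm8a1 (r = 0.912) and the ribosomal protein gene Rpl10a (r = 0.899). For Plpp1 they were Nsmce1, of the SMC5/6 complex (r = 0.992), Tmbim4 (r = 0.984) and Cfap36 (r = 0.980). For Cnep1r1 they were Ccdc105 (r = 0.974), the circadian gene Per3 (r = 0.959) and the transcription factor gene Gli3 (r = 0.958). The libraries share depth and length trends, and the groups alone give such genes high values. Nsmce1 had 262, 294, 272 and 247 CPM in spermidine, 140, 149 and 154 CPM in aged and 391, 392 and 383 CPM in young libraries, the same order of groups as Plpp1.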

How the data were processed

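RNA was sequenced from 10 oocyte libraries. The authors deposited 1 table whose headers call the values read counts. They are expected counts by their decimals, since 15.9% to 16.7% of a library's deposited values were not whole. The deposited table also holds the authors' log2 fold changes, p-values and q-values. Tools in the submitters' processing notes are RSEM 1.3.1, Bowtie2 2.3.4.3 and DESeq2 1.4.5, and the build is mm9. Whether strand was used is not stated, so reads of overlapping or antisense genes cannot be told apart.

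Counts were rounded, filtered by filterByExpr, scaled by TMM and tested with edgeR 4.0.16 in R 4.3.3 (robust quasi-likelihood F test, 1 fit over 3 groups, Benjamini-Hochberg over 12315 genes, threshold 0.05). SEs are those implied by the F statistic. The procedure was tested on simulated data. The 10 genes and the lists were chosen with earlier results of these data known. The pathway genes named are those that passed, up to 4 of smallest p per family and comparison. Transcript length and GC content came from the longest coding transcript in GENCODE M21 (GRCm38), for 97.4% of genes tested. Totals of 24222185 to 28730790 counts set the precision. The 20 alternatives changed the scaling (RLE, total counts), the filter (none, or 10 CPM in 3 libraries), the tool (DESeq2 1.42.0, a fit that is not robust), the model (a replicate block, a length and GC correction, the compared groups alone) or the libraries kept. Motifs were searched with Python 3.11.15, and figures drawn with matplotlib 3.10.9.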

Additional observations from a re-analysis of the deposited data

Results flagged for a closer look

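In the spermidine group, Ctdnep1 in replicate 1 stood at 1.59 CPM, far from the 1.15 to 1.17 CPM of the other 3 libraries: its gap to the nearest was 0.946 of the group's range, above Dixon's critical value for a group of 4. It was the only such value among the 18 genes examined (the 10 members and 8 pathway genes), and chance flags about 5% of groups. Replicate 1 held 53 counts of Ctdnep1.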

How the results depend on the processing

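Of the members' values under the alternatives, 548 stayed on the same side, 12 lost a call, 5 gained one and 19 changed sign. Another 4, of Plpp1 and Cnep1r1, moved by more than 1 SD, which was counted only for the genes chosen for their change. For the paralogs and partners such moves are within the 548 where the call and sign held. With length and GC correction, aged minus young went from 0.763 to 0.472 for Lpin2 (SD 0.212) and from 0.355 to 0.043 for Gpat4 (SD 0.192). Lpin1 for spermidine minus aged was 0.0435 with the replicate block, 0.13 with length and GC correction and 0.15 when aged 1 and spermidine 1 were both dropped, and -0.24 to 0.18 over single libraries left out. Without that pair of libraries Plpp2 and Ctdnep1 for aged minus young were 0.15 and -0.15, and Ctdnep1 for spermidine minus aged was 0.23. Left out singly, libraries moved these 3 values over -0.27 to 0.16, -0.14 to 0.69 and -0.45 to 0.34. For aged minus young, total count scaling gave 0.0254 for Gpat3 and 0.0439 for Plpp2. For spermidine minus young, Gpat4 was -0.0228 with length and GC correction and -0.0272 to 0.26 over libraries left out, Plpp3 -0.0019 to 0.27 and Ctdnep1 -0.0078 to 0.45. The cause was not tested.

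The genes that passed for aged minus young were 2189, but 1179 under 10 CPM in 3 libraries and 827 to 2570 over libraries left out, singly or as that pair (827 without young replicate 1, 1031 without young 3, 1359 without aged 2, 1426 without aged 3). For spermidine minus aged they were 598, but 1348 with DESeq2, 259 with total counts, 124 with only the groups compared and 99 to 1127 over libraries left out (273 and 281 without young 1 and 3, 99 and 167 without aged 2 and 3, 111, 167 and 1127 without spermidine 2, 3 and 4). For spermidine minus young they were 660, but 273 with the stricter filter, 1053 with DESeq2 and 283 to 874 over libraries left out (283 and 326 without young 1 and 3, 376 without spermidine 2). Total counts split the aged minus young calls into 1236 higher and 405 lower, against 1196 and 993. Those for spermidine minus young, 424 higher and 236 lower, were 605 and 126 with total counts, 543 and 510 with DESeq2 and 450 and 395 with length and GC correction. The pathway list had 7, 2 and 1 calls in the 3 comparisons. Aged minus young had 3 with the stricter filter and 2 to 8 over libraries left out (2 and 3 without young 1 and 3). Spermidine minus aged had 4 with RLE factors, 1 without a filter, 0 with the stricter filter (edgeR, 5 at an unadjusted p under 0.05), 7 with DESeq2, 1 with total counts, 5 with length and GC correction, 1 with only the groups compared and 1 to 5 over libraries left out (1 without any 1 of the young libraries, aged 2, aged 3, spermidine 2 or spermidine 3, and 5 without spermidine 4). Spermidine minus young had 0 with the stricter filter (edgeR, 3 at an unadjusted p under 0.05), 3 with DESeq2, 2 with only the groups compared, 3 without the pair of libraries and 0 to 3 over libraries left out (3 without aged 1, and 0 without any 1 of the young libraries, aged 2, aged 3, spermidine 2 or spermidine 3, with 3 to 7 at an unadjusted p under 0.05 by edgeR). Fewer genes enter under the stricter filter, which leaves out Plpp2, Lpin1, Ctdnep1, Agpat3 and 5 of the named pathway genes. The same alternatives for the named pathway genes were added after seeing the data.

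Not every pair of same-numbered libraries deviated together: correlations across genes were 0.180, 0.173 and -0.261 for aged with young, 0.377, -0.0756 and 0.0588 for spermidine with aged and -0.0764, -0.176 and -0.0388 for spermidine with young, so the numbers were not taken as pairs. Among replicates 1 to 3, pairs with different numbers gave -0.368 to 0.340 for aged with young. They gave -0.379 to 0.163 for spermidine with aged and -0.0214 to 0.109 for spermidine with young. With the replicate block, 998 genes passed for spermidine minus aged and 4 and 2 pathway genes in the comparisons of spermidine with aged and with young.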

Other observations

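The authors' deposited table gives log2 ratios of spermidine over aged of 1.31 for Gpat3, 1.14 for Plpp1, -0.53 for Cnep1r1 and -0.60 for Lpin2. For aged over young, the authors' deposited table gives -0.16 for Gpat3, -1.77 for Plpp1, 2.09 for Cnep1r1 and 0.72 for Lpin2.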
